A study of Mus musculus with 10 samples.

Results

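The imprint maintenance factors described here are 9 genes whose proteins keep DNA methylation on imprinted regions through cell division and silence repeats: the KRAB zinc finger genes Zfp57 and Zfp445, the corepressor gene Trim28, the H3K9 methyltransferase genes Setdb1, Ehmt1 and Ehmt2, the heterochromatin reader gene Cbx5, and Atrx and Daxx, which deposit the histone variant H3.3. They are a fixed set of symbols, named with earlier results of these data known, and all 9 were found among 52636 Ensembl gene identifiers and were among the 16005 genes tested. Their RNA was compared in mouse embryonic stem cells (E14, a male line derived from the blastocyst). The WT group (2 RNA-seq libraries) was unedited E14, and the CBE-KO group (2 libraries) was E14 that lacked a CTCF binding element near the HoxA genes (CTCF is a protein that organises chromatin loops). Both groups had been moved from medium with LIF and the 2 inhibitors PD0325901 and CHIR99021 (2i) to medium without LIF and 2i, with retinoic acid for 24 h at a dose of 2 µM (the labels write the unit as µm, read here as µM). The labels do not say how many edited clones were used or whether replicates came from separate cultures. The p-values therefore measure the spread between these libraries, which may be technical. For each gene that spread was drawn mostly from all tested genes (15.3 prior degrees of freedom). The gene's own 4 libraries gave less of it (2 residual degrees of freedom).

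In the known pathway, a KRAB zinc finger protein such as ZFP57 binds a short methylated DNA sequence in an imprinting control region and recruits TRIM28. TRIM28 in turn brings SETDB1, which trimethylates lysine 9 of histone H3 (H3K9), HP1 proteins such as CBX5, which bind that mark, and DNA methyltransferases. EHMT2 (G9a) and EHMT1 (GLP) form a heterodimer that mono- and dimethylates H3K9, and the ATRX-DAXX complex places H3.3 at repeats, telomeres and imprinted regions. In embryonic stem cells this machinery also silences endogenous retroviruses, and its loss is known to free genes of the 2-cell embryo and of the germline.

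The sequence that ZFP57 is known to bind is TGCCGC, and the promoter windows below show where it lies in genes that the results turn on. Windows of 300 bases, from 250 before to 50 after an annotated start, came from RefSeq on GRCm38.p6, where all 9 factors matched. TGCCGC was searched on both strands, so its reverse complement GCGGCA counts too, and capitals mark the matches. Among the factors, 1 window of Trim28 and 1 of the 2 windows of Ehmt2 held 1 match each, and those of the other 7 factors held none, against 11.6% of 32851 windows of all genes. The windows of the 2 factors are shown because these 2 genes had the largest differences of the 9. Those of the imprinted genes Plagl1, Nap1l5 and Zdbf2 are shown because they hold matches and the genes passed the test in different directions. A match is a description of the letters and not evidence of binding.
Trim28, chr7:13023902-13024201, plus strand: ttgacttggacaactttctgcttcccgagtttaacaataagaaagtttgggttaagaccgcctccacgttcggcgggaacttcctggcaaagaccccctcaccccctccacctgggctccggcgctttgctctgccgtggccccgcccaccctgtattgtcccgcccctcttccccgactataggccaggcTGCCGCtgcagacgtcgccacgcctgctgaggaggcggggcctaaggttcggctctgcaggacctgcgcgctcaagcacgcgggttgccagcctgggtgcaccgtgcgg
Ehmt2, second annotated start, chr17:34898720-34899019, plus strand: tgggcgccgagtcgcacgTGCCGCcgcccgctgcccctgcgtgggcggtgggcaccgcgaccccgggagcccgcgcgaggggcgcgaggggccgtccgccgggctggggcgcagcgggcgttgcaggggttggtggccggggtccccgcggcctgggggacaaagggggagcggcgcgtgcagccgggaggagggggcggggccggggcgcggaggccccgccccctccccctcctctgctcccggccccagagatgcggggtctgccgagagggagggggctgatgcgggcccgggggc
Plagl1, chr10:13090582-13090881, plus strand: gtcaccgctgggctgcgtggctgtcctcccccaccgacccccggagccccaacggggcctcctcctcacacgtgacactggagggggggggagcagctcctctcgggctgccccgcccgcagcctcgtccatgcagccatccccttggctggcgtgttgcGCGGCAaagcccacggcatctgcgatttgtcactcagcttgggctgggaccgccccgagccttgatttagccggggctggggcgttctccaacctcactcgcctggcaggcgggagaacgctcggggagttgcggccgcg
Nap1l5, chr6:58907077-58907376, minus strand: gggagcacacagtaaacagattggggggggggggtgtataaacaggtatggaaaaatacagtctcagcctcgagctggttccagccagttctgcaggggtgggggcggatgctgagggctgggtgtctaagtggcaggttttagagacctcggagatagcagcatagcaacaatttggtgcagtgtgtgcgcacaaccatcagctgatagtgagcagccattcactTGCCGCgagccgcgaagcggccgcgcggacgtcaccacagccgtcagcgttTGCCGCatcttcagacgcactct
Zdbf2, chr1:63200108-63200407, plus strand: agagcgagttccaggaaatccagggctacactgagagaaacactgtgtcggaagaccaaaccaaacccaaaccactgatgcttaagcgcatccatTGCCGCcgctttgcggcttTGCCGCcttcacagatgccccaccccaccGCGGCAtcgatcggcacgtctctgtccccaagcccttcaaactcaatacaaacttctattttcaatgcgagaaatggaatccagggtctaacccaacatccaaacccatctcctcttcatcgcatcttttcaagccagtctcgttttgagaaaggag
The Trim28 match lies in a window with 23 CpG dinucleotides and the Ehmt2 match in one with 40, against a median of 7 over all windows. The windows of Ehmt1, without a match, and of Daxx at its most upstream start held 34 and 33 CpG, whereas that of Zfp57 at its most upstream start held 6. The ETS-type sequence CCGGAAG occurred in the windows of Setdb1 and Daxx and in 8.86% of all windows, and CCAAT in those of Setdb1, Cbx5, Atrx and Daxx at their most upstream starts and in 37.4% of all windows. These letters were searched separately on both strands, so matches to different motifs could overlap.

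Library totals ranged from 14108038 to 15632960 counts, and 3 counts were worth 0.184 to 0.218 CPM, which here means counts relative to library size after TMM adjustment (a trimmed mean of M-values). All 9 factors had at least 1337 counts in every library. Of the 16005 tested genes, 6895 (43.1%) passed edgeR's quasi-likelihood test at an adjusted p under 0.05, 3461 higher and 3434 lower in CBE-KO, and 4770 higher and 2352 lower when libraries were scaled by their totals alone, where the median over all genes was 0.11. Pluripotency markers were abundant in all libraries, with a summed level of 8162 to 8440 CPM over 10 genes in WT and 7854 to 7986 CPM in CBE-KO. That sum hides opposite differences: 6 of the 10 fell, among them Utf1 (-1.67) and Tdgf1 (-1.20), and 3 rose, among them Dppa5a, which alone made up 3434 to 4297 CPM, and the median log2 fold change was -0.34. Summed retinoic acid response markers (8 genes) stood at 692 to 712 CPM in WT and 1335 to 1368 CPM in CBE-KO, neural progenitor markers (5 genes) at 36.9 to 37.3 and 63.7 to 65.3 CPM, extraembryonic endoderm markers (8 genes) at 93.6 to 94.7 and 101 to 104 CPM, and trophoblast markers (7 genes) at 85.8 to 90.9 and 87.3 to 88.4 CPM. Of the trophoblast markers, Tfap2c fell (-0.74) and Krt8, which held 48.4 to 58.3 CPM of the sum, rose (0.20). Of the extraembryonic endoderm markers, Gata4 (0.72), Sox7 (0.81) and Dab2 (0.77) rose and Amn fell (-1.15). The other 4 did not pass, among them Gata6, which held 49.3 to 52.1 CPM of the sum. Of the neural progenitor markers 4 rose, with Sox3 at 11.8 to 12.2 CPM in WT and 32.2 to 32.9 CPM in CBE-KO. Nes did not pass (-0.31, edgeR adjusted p = 0.0687). Fibroblast markers (7 genes) summed to 11.3 to 12.9 CPM in WT and 14.8 to 17.6 CPM in CBE-KO, with Dcn, Lum and Postn at 0 counts in all 4 libraries. Of the others, Col1a1 rose from 48 and 50 counts in WT to 95 and 100 in CBE-KO (0.88, edgeR adjusted p = 0.00290). Thy1, which held 7.69 to 10.1 CPM of the sum, did not pass (0.04). Col1a2 (0 and 1 counts in WT, 12 and 8 in CBE-KO) and Col3a1 (0 and 0 in WT, 8 and 1 in CBE-KO) were low and were not tested. The 5 Y-linked genes checked had 12 to 19 counts in all in the WT libraries and 2182 to 2589 in the CBE-KO libraries, although the line is male and no label names such a difference between the groups. Of these genes, Kdm5d was low in both groups (1 and 0 counts in WT, 4 and 7 in CBE-KO) and was not tested. The other 4 passed, all higher in CBE-KO. This Y-linked difference follows the groups in all 4 libraries. Whatever it reflects cannot be told apart from the deletion in the values below. The part of the marker differences in those values was not tested. In bulk RNA, fewer cells of a type and less RNA per cell cannot be told apart.

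Of the 9 factors, 5 were lower in CBE-KO and none was higher at an adjusted p under 0.05 (edgeR), a share of 55.6%, against 43.1% of all tested genes in either direction and 21.5% in the lower direction. Ehmt2 fell furthest, with a change of -38.3% on the linear scale, followed by Trim28 (-26.4%), Atrx (-23.1%), Daxx (-22.9%) and Cbx5 (-11.8%). Zfp57, Zfp445, Setdb1 and Ehmt1 did not pass. The median log2 fold change of the 9 was -0.18, against 0.01 for all tested genes. The factors are, however, abundant genes, and abundant genes as a whole were lower: of the 2410 tested genes with a mean level at or above that of the lowest factor, 93.6 CPM (a class set after the values were seen), 51.2% were lower and 14.0% higher, with a median of -0.14. Read against these genes, the share of factors that fell is close to the background.

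**Figure D1:**
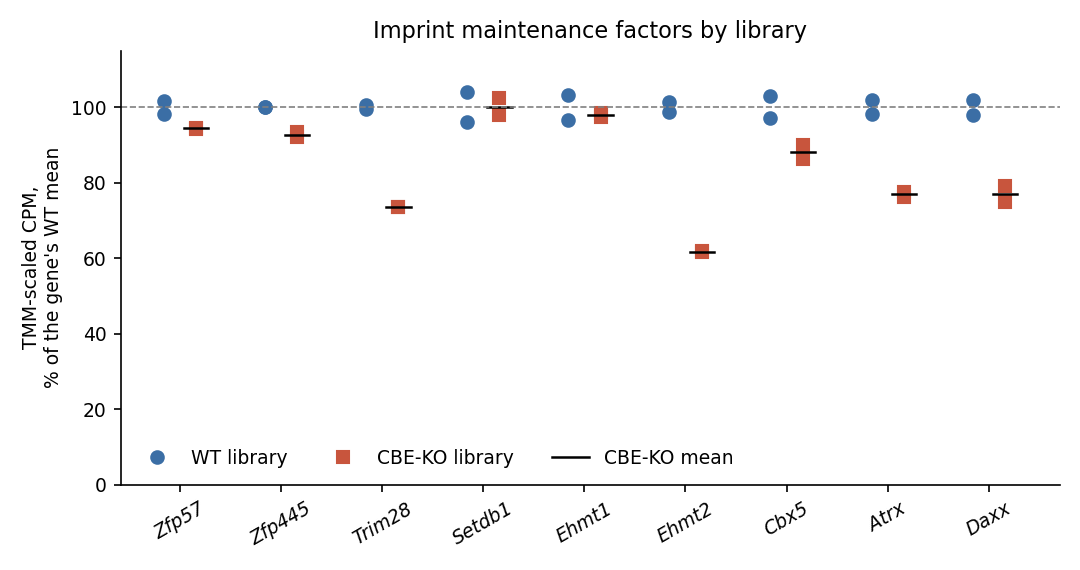
TMM-scaled CPM of each factor in each library, as a percentage of the gene's WT mean (vertical axis, from 0), with WT libraries as circles, CBE-KO libraries as squares and the CBE-KO mean as a bar. The CBE-KO libraries of Ehmt2 lie lowest, near 61.7% of WT, and those of Setdb1 and Ehmt1 lie among the WT libraries.

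The KRAB zinc finger genes supply the sequence specificity of the pathway. Zfp57 (ENSMUSG00000036036; chr17:37001163-37010729), whose product recognises most imprinting control regions, had 700 and 677 CPM in WT and 651 and 650 CPM in CBE-KO. Both CBE-KO libraries lay below both WT libraries, as for 33.9% of all tested genes (70.3% in either direction). The log2 fold change of -0.08 ± 0.04 (SE; adjusted p = 0.156 by edgeR) did not pass, and its 95% interval ran from -0.18 to 0.01, a change between -11.5% and 0.9%. Zfp445 (ENSMUSG00000047036; chr9:122848910-122886851), which acts beside ZFP57 at imprinted regions, had 121 and 121 CPM in WT and 111 and 113 CPM in CBE-KO. The log2 fold change, -0.11 ± 0.05 (SE; adjusted p = 0.0911 by edgeR), did not pass, although its own 95% interval, not adjusted for the number of genes, ran from -0.22 to -0.003. The 2 genes kept nearly the same proportion to each other, with 5.80 and 5.61 Zfp57 reads for each Zfp445 read in WT and 5.86 and 5.76 in CBE-KO. Scaling by library totals gave log2 fold changes of 0.02 for Zfp57 and -0.005 for Zfp445. In the RefSeq annotation Zfp445 overlaps Zkscan7, and whether counting used strand is not given in the sources used here, so reads in the shared stretch cannot be assigned with certainty.

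Trim28 (ENSMUSG00000005566; chr7:13024152-13031032) encodes the corepressor that joins KRAB zinc finger proteins to the silencing enzymes, and it had 23800 to 32640 counts per library. Its level was 2231 and 2210 CPM in WT and 1634 and 1632 CPM in CBE-KO. The replicates were close in both groups and the groups did not overlap. In the RefSeq annotation Trim28 overlaps Gm31649, so reads in the shared stretch cannot be assigned with certainty, as for Zfp445. The log2 fold change of Trim28 was -0.44 ± 0.04 (SE; adjusted p = 1.82e-07 by edgeR), a change of -26.4% (95% interval -30.7% to -21.8%). Because both genes are counted in the same library, the ratio of Trim28 to Zfp57 reads needs no scaling: it was 3.19 and 3.26 in WT against 2.51 and 2.51 in CBE-KO, a change of -22.1%. For this and the other 7 ratios computed, which were chosen after the values were seen, an exact two-sided permutation test of 2 against 2 libraries cannot go below p = 0.333, and this ratio reached that smallest value.

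Of the 3 H3K9 methyltransferase genes, Ehmt2 passed the test and Setdb1 and Ehmt1 did not. Setdb1 (ENSMUSG00000015697; chr3:95323525-95357202), the enzyme recruited by TRIM28, had 114 and 124 CPM in WT and 122 and 117 CPM in CBE-KO. The CBE-KO libraries lay between the WT libraries, and the log2 fold change was 0.004 ± 0.05 (SE; adjusted p = 0.965 by edgeR), with a 95% interval from -7.4% to 8.6%. Ehmt1 (ENSMUSG00000036893; chr2:24790769-24919643), which encodes GLP, had 91.4 and 97.8 CPM in WT and 92.1 and 93.2 CPM in CBE-KO. Its groups overlapped as well, and its log2 fold change was -0.03 ± 0.06 (SE; adjusted p = 0.712 by edgeR), with a 95% interval from -9.7% to 6.4%. Ehmt2 (ENSMUSG00000013787; chr17:34898463-34914073), which encodes the partner G9a, had 405 and 395 CPM in WT and 247 and 246 CPM in CBE-KO. All Ehmt2 values in CBE-KO were far below those in WT, with a log2 fold change of -0.70 ± 0.05 (SE; adjusted p = 2.86e-09 by edgeR), a change of -38.3% (95% interval -42.3% to -34.0%). Among the 579 genes with a mean of at least 300 CPM, its own abundance class, 2.59% had a lower log2 fold change.

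The proportions of the methyltransferase reads were compared directly. There were 4.44 and 4.04 Ehmt2 reads for each Ehmt1 read in WT against 2.68 and 2.64 in CBE-KO, a change of -37.0% in the ratio (exact permutation p = 0.333, two-sided, the smallest that 4 libraries allow). These are ratios of reads and not of transcripts, since the genes differ in length, but a change between groups does not depend on length. The ratio of Trim28 to Setdb1 reads was 19.5 and 17.9 in WT against 13.4 and 14.0 in CBE-KO, a change of -26.6% (same exact permutation p). In the RefSeq annotation the end of Cers2 overlaps Setdb1, and Cers2 had a log2 fold change of -0.11 (edgeR adjusted p = 0.256).

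Cbx5 (ENSMUSG00000009575; chr15:103191546-103239904) encodes HP1 alpha, which binds methylated H3K9. It had 443 and 469 CPM in WT and 410 and 394 CPM in CBE-KO. The groups did not overlap, but they were separated by less than the other called factors, with a log2 fold change of -0.18 ± 0.05 (SE; adjusted p = 0.00547 by edgeR), a change of -11.8%. This call was lost with library totals (-0.08, adjusted p = 0.212) and without CBE-KO replicate 2 (-0.15, adjusted p = 0.0820). The related HP1 genes Cbx1 (HP1 beta; -0.16, edgeR adjusted p = 0.00988) and Cbx3 (HP1 gamma; -0.10, edgeR adjusted p = 0.161) had similar small differences. The ratio of Cbx5 to Cbx1 reads was 1.03 and 1.11 in WT and 1.09 and 1.02 in CBE-KO, so the ratios overlapped.

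Atrx and Daxx encode the 2 parts of an H3.3 chaperone, a chromatin remodeller and the subunit that holds the histone. Atrx (ENSMUSG00000031229; chrX:105797615-105929372) had 213 and 221 CPM in WT and 166 and 169 CPM in CBE-KO. The groups were clearly apart, with a log2 fold change of -0.38 ± 0.05 (SE; adjusted p = 6.92e-06 by edgeR), a change of -23.1% (95% interval -28.3% to -17.5%). Daxx (ENSMUSG00000002307; chr17:33909404-33915590) had 139 and 145 CPM in WT and 107 and 113 CPM in CBE-KO, for a log2 fold change of -0.38 ± 0.05 (SE; adjusted p = 1.61e-05 by edgeR), a change of -22.9%. The 2 genes lie on different chromosomes and fell by nearly the same amount: there were 0.654 and 0.655 Daxx reads for each Atrx read in WT against 0.644 and 0.669 in CBE-KO, a change in the ratio of 0.2% (exact permutation p = 1.00, two-sided). With 4 libraries that p does not show that the genes move alike.

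**Figure D2:**
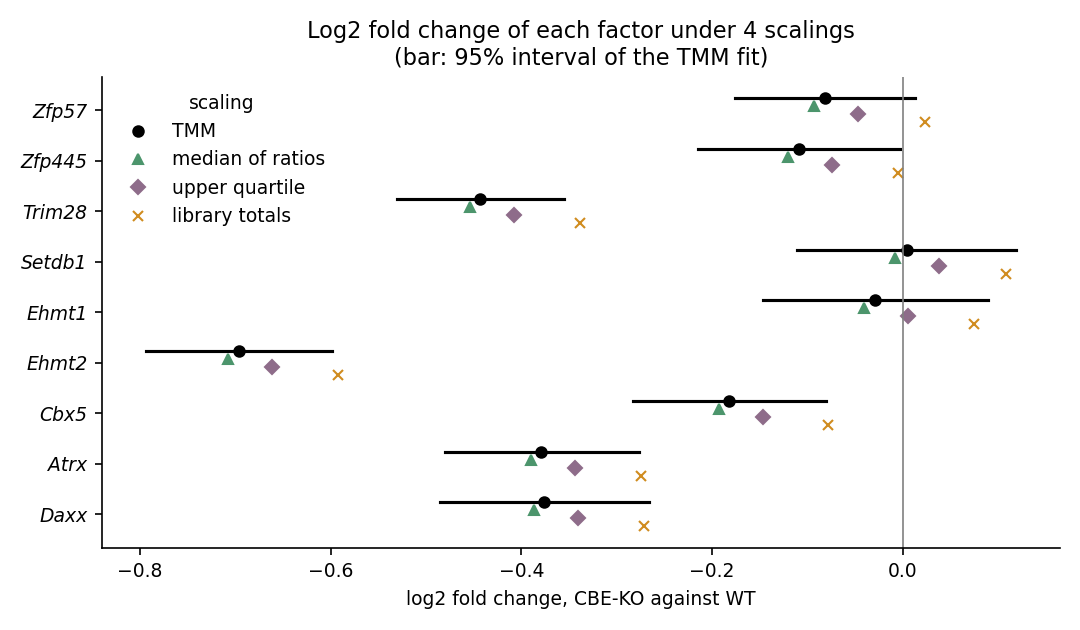
Log2 fold change of each factor (horizontal axis, CBE-KO against WT) with libraries scaled in 4 ways, and the 95% interval of the TMM fit as a bar. Ehmt2, Trim28, Atrx and Daxx stay below -0.27 in all 4 scalings, while library totals bring Cbx5 to -0.08 and Zfp57 to 0.02. Setdb1 and Ehmt1 lie on either side of 0 depending on the scaling.

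The differences were set beside those of other genes in broad classes of abundance. The median log2 fold change went from 0.14 for the 5060 genes with a mean of 1 to 10 CPM to -0.12 for the 1831 genes from 93.6 to 300 CPM and -0.17 for the 579 genes above, the classes that hold 5 and 4 of the factors. With library totals alone the 2410 genes at or above 93.6 CPM had a median of -0.03, with 34.4% lower and 23.3% higher, and 4 of 9 factors (Ehmt2, Trim28, Atrx and Daxx) were lower. Each factor was then ranked within its own class in the TMM fit. Of the 579 genes above 300 CPM, 10.4% had a log2 fold change below that of Trim28, 2.59% below that of Ehmt2, 47.3% below that of Cbx5 and 66.8% below that of Zfp57. Of the 1831 genes from 93.6 to 300 CPM, 16.7% lay below Atrx, 16.8% below Daxx, 52.5% below Zfp445, 67.7% below Ehmt1 and 71.8% below Setdb1. Ehmt2, Trim28, Atrx and Daxx were thus toward the lower end of their classes, and Cbx5 and Zfp445 near the middle.

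**Figure D3:**
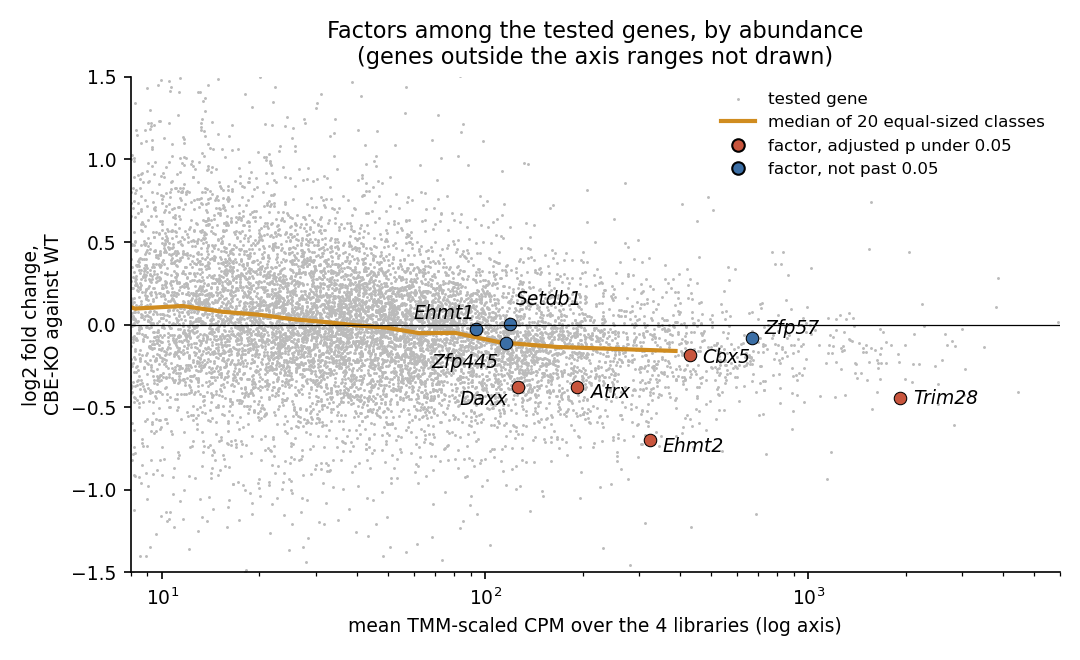
Log2 fold change (vertical axis) against mean TMM-scaled CPM (horizontal log axis) for tested genes (grey), the median of 20 equal-sized abundance classes (line) and the 9 factors (filled by whether they passed). The line falls below 0 at the abundance of the factors, Cbx5 lies close to it, and Ehmt2, Trim28, Atrx and Daxx lie below it.

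The surroundings of each gene were examined next. Chromosome medians over 14998 placed genes lay between -0.07 and 0.14. That of the X chromosome, which carries Atrx, was 0.14 (555 genes, 94 of them lower). The 45 X-linked genes between 93.6 and 300 CPM, the class of Atrx, had a median of -0.08, with 20 lower and 8 below Atrx. Zfp57, Ehmt2 and Daxx lie on chromosome 17, whose 724 tested genes had a median of -0.01. The nearest tested genes with a mean of at least 1 CPM on each side of Ehmt2 were Zbtb12, which rose (0.28 ± 0.08, SE; adjusted p = 0.00909 by edgeR; DESeq2 adjusted p = 0.106), and Slc44a4 (-0.05, edgeR adjusted p = 0.789). Neither neighbour of Daxx (BC051226 and Zbtb22) or of Atrx (Magee1 and Magt1) passed. Hnrnpa1, which begins 0.039 kb from Cbx5, had a log2 fold change of 0.03 (edgeR adjusted p = 0.552), and Smug1, 22.6 kb away on the other side, rose by 0.62 ± 0.11 (SE; adjusted p = 0.000276 by edgeR).

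Trim28 differed in this respect, since both of its neighbours, Zbtb45 and Chmp2a, fell with it. Falls were common at their levels. In the abundance class of Zbtb45 (10 to 93.6 CPM) 23.5% of the tested genes were lower, and in that of Chmp2a (93.6 to 300 CPM) 48.8%. Zbtb45, 14.1 kb away, had 34.8 and 33.4 CPM in WT and 24.2 and 23.2 CPM in CBE-KO, for a log2 fold change of -0.52 ± 0.09 (SE; adjusted p = 9.22e-05 by edgeR). Chmp2a, 0.974 kb away, had 146 and 125 CPM in WT and 113 and 116 CPM in CBE-KO (-0.24 ± 0.06, SE; adjusted p = 0.00482 by edgeR), a call that was lost with library totals (adjusted p = 0.0725) and without WT replicate 1 (adjusted p = 0.0777). Of the neighbours of the factors that did not pass, Arrdc1 beside Ehmt1 rose (0.53 ± 0.16, SE; adjusted p = 0.0127 by edgeR), but not in DESeq2 (adjusted p = 0.0744) nor without WT replicate 2 or CBE-KO replicate 2 (adjusted p up to 0.104).

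**Figure D4:**
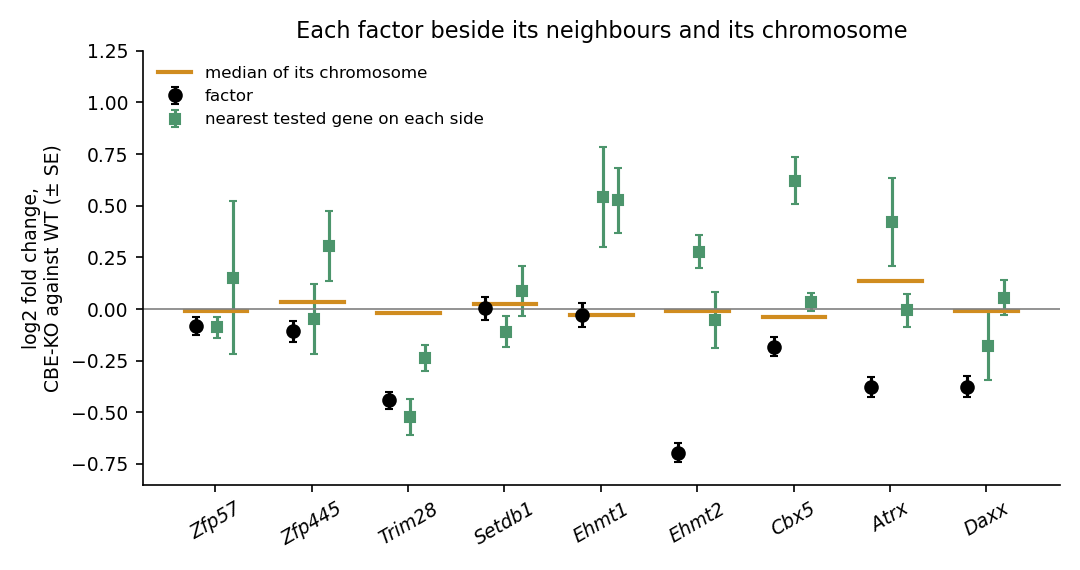
Log2 fold change ± SE of each factor (circle), of the nearest tested gene on each side (squares) and the median of its chromosome (bar). Both squares lie below 0 only beside Trim28, at -0.52 and -0.24, under TMM scaling.

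Other genes of the pathway were compared as lists. Of 18 partners in H3K9 methylation and HP1 binding, all tested, 9 passed (50.0%, near the 43.1% of all tested genes), 4 higher and 5 lower (5 higher and 1 lower with library totals), with a median log2 fold change of -0.02. Those that rose most were Suv39h1, a methyltransferase of constitutive heterochromatin (0.46 ± 0.10, SE; adjusted p = 0.00153 by edgeR), and Fam208a and Mphosph8, which encode the TASOR and MPP8 subunits of the HUSH silencing complex (0.28 and 0.23). The third HUSH gene, Pphln1, went the other way (-0.26, edgeR adjusted p = 0.0116), but did not pass in DESeq2 (adjusted p = 0.0696), with library totals (adjusted p = 0.116) or without WT replicate 2 or CBE-KO replicate 1. Resf1, a factor that aids SETDB1 at retroviruses, fell by 0.25 on the log2 scale. Sumo2 differed between the WT libraries (5111 and 1769 counts), a spread that left its difference undetermined (-0.26, edgeR adjusted p = 0.428).

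Of the 10 genes of enzymes that remove H3K9 methylation, 5 passed (50.0%), 2 higher and 3 lower (4 higher and 1 lower with library totals), with a median of 0.01. Only 2 passed without CBE-KO replicate 1 and 3 in DESeq2, all lower. Jmjd1c, a JmjC-domain gene of the Kdm3 family, fell from 146 and 157 CPM to 95.4 and 98.2 CPM, a log2 fold change of -0.65 ± 0.05 (SE; adjusted p = 3.59e-08 by edgeR). Kdm4b (-0.26) and Kdm3a (-0.22) fell too, but not with library totals (adjusted p = 0.0676 and 0.0893), and Kdm4b also not without CBE-KO replicate 1 (adjusted p = 0.0879). The rises of Kdm7a (0.24) and Kdm3b (0.16) were lost in DESeq2 (adjusted p = 0.214 and 0.117), and each was lost in fits without 1 library, up to adjusted p = 0.241 for Kdm3b.

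Of 8 genes of H3.3 and its other chaperones, 4 passed (50.0%, against 43.1% of all tested genes), all lower, with a median of -0.10, but with library totals 2 were higher and 2 lower. Asf1a (-0.48 ± 0.08, SE; adjusted p = 9.19e-05 by edgeR) and Asf1b (-0.40 ± 0.07, SE; adjusted p = 0.000141 by edgeR), which carry H3 to the chaperones, fell in all alternatives tried. Hira, of the chaperone that places H3.3 in genes, fell by 0.27 on the log2 scale (edgeR adjusted p = 0.0136), not so in DESeq2 (adjusted p = 0.0956), with library totals (adjusted p = 0.119) or without CBE-KO replicate 1.

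Among 8 partners in DNA methylation 7 were tested and 6 passed (85.7%, against 43.1% of all tested genes), 5 lower and 1 higher (4 lower and 1 higher with library totals), with a median of -0.29. All the tested ones but Smchd1 had a mean above 93.6 CPM. Of all genes at or above that level 65.3% passed and 51.2% were lower. The largest falls were those of the de novo methylation genes: Dnmt3l, an enzymatically inactive cofactor, had 527 and 534 CPM in WT and 165 and 158 CPM in CBE-KO (-1.71 ± 0.05, SE; adjusted p = 3.85e-14 by edgeR), Dnmt3b changed by -1.13 and Dnmt3a by -0.57. The maintenance enzyme gene Dnmt1 had a log2 fold change of -0.11 (edgeR adjusted p = 0.0563), and Uhrf1, which guides it to replicated DNA, fell by 0.29 on the log2 scale (edgeR adjusted p = 5.74e-05). Smchd1, which acts on the inactive X chromosome and some imprinted clusters, rose by 0.31. Of 10 other KRAB zinc finger genes with described targets, 8 were tested and 4 passed (50.0%), 3 higher and 1 lower, with a median of 0.14. Zfp819 fell from 85 and 88 counts to 33 and 32 (-1.53 ± 0.23, SE; adjusted p = 4.46e-05 by edgeR). Zfp992 rose by 0.36, whereas the rises of Zfp809, a repressor of a retroviral primer binding site (0.27), and Gm15446 (0.51) were lost in DESeq2 (adjusted p = 0.0514 and 0.191), and that of Gm15446 also not in fits without WT replicate 2 or either CBE-KO library. Zinc finger genes of this kind have near copies, so their counts are uncertain.

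The genes that the machinery silences were compared as a last group. Of 36 imprinted genes 31 were tested and 25 passed (80.6%, against 43.1% of all tested genes), 18 higher and 7 lower, with a median log2 fold change of 0.41. The directions were mixed within the group. Plagl1, a paternally expressed zinc finger gene, had 42 and 16 counts in WT against 1073 and 917 in CBE-KO (4.98 ± 0.16, SE; adjusted p = 2.72e-13 by edgeR). Peg13, a noncoding RNA, had 6 and 0 counts in WT against 153 and 138 in CBE-KO (edgeR adjusted p = 1.56e-08), and Nnat had 88 and 102 against 376 and 365 (1.84 ± 0.14, SE). Peg13 and Meg3 (6 and 11 counts in WT, 18 and 28 in CBE-KO) would not have entered the test on their WT counts alone. The share that passed and the split of 18 to 7 therefore lean toward rises. The largest falls were those of Igf2 (-3.95), Phlda2 (-2.71) and Cdkn1c (-1.56), which lie near one another on chromosome 7. The promoter windows of 29 of the genes were in the RefSeq table, and 10 of them (34.5%) held TGCCGC at an annotated start, against 13.1% of 27025 genes. Of those 10, 7 rose (Plagl1 and Nap1l5, shown above, and Meg3 among them) and 2 fell (Igf2 and Zdbf2). Through Meg3 this split leans toward rises too. Of the 31 tested genes of the whole list, 18 rose and 7 fell. Those 31 include the genes with a match and also genes without a window, such as Peg13, so a part is set beside its whole. Whether a match goes with a rise was not tested. The comparison of 34.5% with 13.1% did not account for the CpG content of the windows, although the sequence holds a CpG. Nor did it account for the number of annotated starts per gene, which was 4 for Igf2. Allele of origin was not measured, so these values do not show whether an imprint was kept.

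Of 16 genes of the 2-cell embryo, 10 were tested and 8 passed, all higher (80.0%, against 21.6% of all tested genes that rose), with a median of 2.01. Their counts were low: Zscan4c had 26 and 17 counts in WT against 114 and 130 in CBE-KO (2.39 ± 0.25, SE; adjusted p = 8.45e-07 by edgeR), Usp17la 7 and 4 against 32 and 44, and Zscan4e 17 and 7 against 65 and 53. The Zscan4 and Usp17l genes are near-identical copies, so reads cannot be assigned to single members with certainty and the 8 calls are not independent. Some of the 10 tested genes, Usp17la for example, entered the test only through their CBE-KO counts. The share and the median of this list therefore lean toward rises. Without a filter on low counts 9 passed, all higher, with a median of 1.86. Of 14 germline genes known to be silenced by H3K9 or DNA methylation, 13 were tested and 7 passed (53.8%, against 43.1% of all tested genes), all higher (21.6% of all tested genes were), with a median of 0.36. Dazl, an RNA-binding protein of germ cells, rose from 219 and 227 counts to 884 and 770 (1.77 ± 0.09, SE; adjusted p = 4.70e-11 by edgeR), Tuba3a by 1.17 ± 0.06 and Slc25a31 by 0.92 ± 0.15. The other 6 tested, Ddx4, Sycp3, Sycp1, Tex101, Hormad1 and Tdrd1, did not pass, with log2 fold changes from -0.35 to 0.36. These lists were low or moderate in abundance, where the median of all genes lay above 0, and retinoic acid response markers were higher in the same libraries; the part of either in these counts was not tested.

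**Figure D5:**
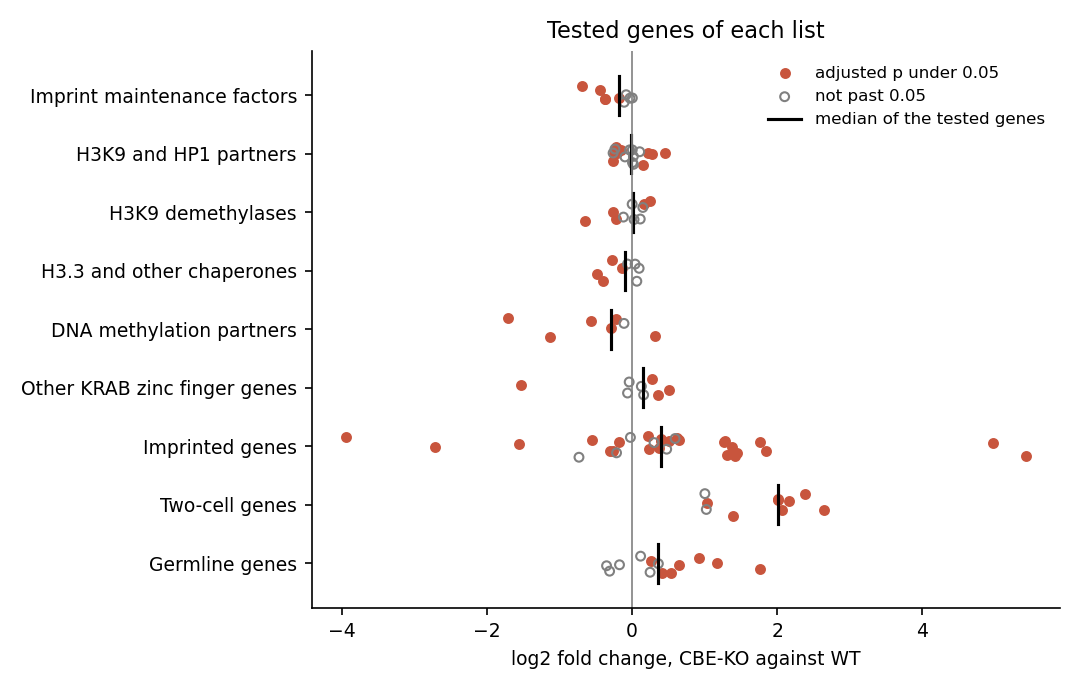
Log2 fold change (horizontal axis) of each tested gene of the 9 factors and of the 8 pathway lists, filled where the adjusted p was under 0.05, with the list's median as a bar. Factors lie between -0.70 and 0.004, while imprinted genes spread from -3.95 to 5.43 and the 2-cell genes all lie above 1.00.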

How the data were processed

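The RNA of 4 libraries was compared, and the 6 Capture-C samples (contacts of a chosen enhancer) were not analysed here. The authors deposited 1 table per library with raw, whole-number counts of reads for each Ensembl gene. Per the submitters' processing notes, HISAT2 2.1.0, HTSeq 0.9.1, DESeq2 1.18.1, Bowtie2 2.3.1 and the build mm10 were used in the series, with no roles stated. Annotation release, strand and treatment of multiply mapped reads are not given in the sources used here. Symbols matched 52403 of 52636 identifiers. RefSeq positions and promoters are of GRCm38.p6.

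Genes were filtered with filterByExpr, scaled by TMM and tested with edgeR 4.0.16 (R 4.3.3; glmQLFit and glmQLFTest, two-sided, without covariates), adjusted by Benjamini-Hochberg across 16005 genes, at a threshold of 0.05. Errors are an approximate SE of the log2 fold change, its absolute value divided by the square root of the test's F statistic. The 95% intervals use this SE and the moderated degrees of freedom. Levels are given per library and are not adjusted for gene length. Read ratios, marker sums and abundance classes set genes side by side in reads and do not compare numbers of transcripts. Alternatives were DESeq2 1.42.0, other scalings and filters, a replicate block, robust moderation, a threshold of 0.01 and leaving out each library. On simulated counts of 16005 genes with 200 changed by a log2 fold change of 1, edgeR recovered 150 with 7 false calls and DESeq2 135 with 0. In the data 43.1% of the 16005 genes passed, and the rate of false calls at such a share was not tested. Recovery of smaller log2 fold changes, such as those of all 9 factors, was not tested. The 9 factors, the lists and the rule for named genes (all factors; per list up to 3 rises and 3 falls that passed, by size, at 1 CPM or more in the higher group; neighbours that passed) were chosen with earlier results of these data known. Dnmt1, Uhrf1, Sumo2, Zdbf2, Nap1l5, Meg3, the neighbours that did not pass and the germline genes that did not pass were named after their values were seen. So were the marker genes Utf1, Tdgf1, Dppa5a, Tfap2c, Krt8, Gata4, Gata6, Sox7, Dab2, Amn, Sox3, Nes, Col1a1, Col1a2, Col3a1, Thy1 and Kdm5d. Protein sequences were not used here. The values of 1 gene covered by the rule are left out of the text.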

Additional observations from a re-analysis of the deposited data

How the results depend on the processing

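Ehmt2, Trim28, Atrx and Daxx kept their direction and their call in all 12 alternatives run, with log2 fold changes from -0.72 to -0.59, -0.45 to -0.34, -0.41 to -0.27 and -0.42 to -0.27. Cbx5 did not pass with library totals (-0.078, adjusted p = 0.212), and over fits without 1 library it ranged from -0.225 to -0.144. Zfp445 did not pass in any (-0.12 to -0.005; adjusted p 0.0630 to 0.955). The sign of 3 factors that did not pass depended on the setting: Zfp57 was 0.023 with library totals; Setdb1 was -0.008 in DESeq2, -0.008 with median-of-ratios scaling, -0.001 without a filter, and -0.054 to 0.056 without 1 library; Ehmt1 was 0.005 with upper-quartile scaling, 0.075 with library totals and -0.079 to 0.015 without 1 library. The cause was not tested. DESeq2 called 4577 genes in all (2047 higher, 2530 lower), 3 H3K9 demethylase genes, 2 genes of H3.3 and its chaperones and 2 other KRAB zinc finger genes. Without 1 library, 2 to 4 demethylase genes passed. At an adjusted p under 0.01, 5 factors passed. The replicate number as a block called 7027 genes and the same count of 5 factors. No label ties libraries of the same number to each other, and their deviations from the group means had a correlation of 0.0346. Fits without 1 library assume that the lone library of a group varies like the pair.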
